A study of Mus musculus with 4 samples.

Results

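The genes described are 38 that drive or mark the mammalian cell cycle, chosen by name: 9 that control entry into the cycle in G1, 10 of DNA replication in S phase and 19 of mitosis. All 38 were found among the 55487 genes in the files. They were read in stem cells sorted from enriched crypts. The mice, aged 6 to 12 weeks and untreated, carried the Lgr5-EGFP-IRES-creERT2 allele, in which the locus of Lgr5, a stem cell marker, expresses green fluorescent protein and an inducible Cre recombinase. For the small intestine (SISC, 2 libraries) the sort took EGFP-positive cells that lacked CD24; for the large intestine (LISC, 2 libraries) it took EGFP-positive cells, and no CD24 gate is named. The comparison of LISC with SISC addresses how stem cells differ between both intestines, and the difference in gate cannot be told apart from the difference in intestine. Both groups carry the same reporter allele. Whether the replicates are different mice or pools is not stated in the labels, so the p-values reflect only how these libraries spread, which may be technical.

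Stem cells at the base of the intestinal crypt divide throughout life. D-type cyclins with Cdk4 or Cdk6, and then cyclin E with Cdk2, release E2F factors and commit a cell to replicate its DNA; p21 (Cdkn1a) and p27 (Cdkn1b) restrain these kinases. The MCM helicase then opens DNA, PCNA clamps the polymerases to it, and ribonucleotide reductase and thymidylate synthase supply nucleotides. Mitotic genes are made later, under B-Myb and Foxm1, and many carry a CCAAT box and a cell cycle genes homology region (CHR) close to their start. The anaphase-promoting complex, with Cdc20 and Ube2c, ends mitosis by marking cyclin B for destruction. Messenger RNA of a sorted population reads how many of its cells are in each phase together with the level per cell, and in bulk libraries fewer cells of a kind and less RNA per cell cannot be told apart.

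Expected counts summed to 16490485 and 27227715 in replicates 1 and 2 of SISC and to 12795434 and 24142212 in those of LISC. The replicate 1 libraries stood apart: nuclear rRNA genes took 24.1% and 28.5% of their counts, against 0.0917% and 0.0997% in SISC and LISC replicate 2. Values within each replicate number are therefore given beside the fitted ones; each sets 1 library against 1 other and has no test. All 10 stem cell markers, Lgr5 among them, were read in every library. Their sums were 2871 and 3357 CPM (counts scaled to a common library size with TMM factors) in SISC, against 2180.2 and 1823 in LISC. Slc12a2 was the largest part of each sum, at 1169 and 1471 CPM in SISC against 960 and 922 in LISC. With it, Smoc2, Axin2 and Cdca7 were lower in both LISC libraries, as were 18.4% of all genes tested. The other markers overlapped between groups, Lgr5 at 114 and 173 CPM in SISC against 147 and 89.7 in LISC. Of other cell types, 6 Paneth cell markers summed to 8445 and 1306 CPM in SISC, against 52.1 and 26.6 in LISC, with Defa17 at 0 in LISC replicate 1. For 7 goblet cell markers the sums were 2051 and 449 CPM in SISC, against 3325 and 5655 in LISC, and for 5 tuft cell markers 21.2 and 4.50 against 81.7 and 124 CPM. Enteroendocrine markers (6) summed to 148 and 27.1 CPM in SISC, against 47.5 and 44.8 in LISC, and absorptive cell markers (8) to between 317 and 541 CPM in the 4 libraries. Immune and stromal markers (6 each) summed to at most 5.57 CPM in any library.

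No cell cycle gene was called different between LISC and SISC, while the median of the mitotic genes lay below 0. Of the 38 members, 0 passed edgeR's quasi-likelihood test at an adjusted p below 0.05 in either direction (p-values adjusted by Benjamini-Hochberg over all genes), against 1.45% of the 14165 genes tested called higher in LISC and 0.741% called higher in SISC (2.2% in all). At an unadjusted p below 0.05 there were 2, Rrm2 higher in LISC and Ube2c higher in SISC (against 8.73% and 4.67% of all genes in these directions, 13.4% in all); DESeq2 called 1 member, Ube2c (DESeq2 adjusted p = 0.039), and 8.35% of all genes, and limma on log2(TPM + 1) and log2(TPM + 0.1) called 0 members and 3.71% and 3.89% of all genes. With the replicate number as a term, edgeR called Rrm2 and Ube2c, and 10.9% of all genes. With 2 libraries a group throughout, the median log2 difference (LISC over SISC, standard errors from edgeR's fit) was −0.44 for the 19 mitotic members, −0.15 for the 10 S phase members and −0.18 for the 9 G1 control members, beside −0.021 over all genes tested. All 19 mitotic members had a log2 difference below 0, as did 9 of the 10 S phase members and 6 of the 9 G1 control members; over all genes the share was 52%. The sign of 4 of the 19 rested on single libraries: without SISC replicate 1, Mki67 came to 1.32, Cenpf to 0.98 and Cenpe to 0.66, without LISC replicate 2 they came to 0.63, 0.59 and 0.39, and without SISC replicate 2 Birc5 came to 0.024. Mki67 also lay above 0, at 0.013 to 0.064, under 4 settings that kept all libraries. All 38 members passed the filter on low counts, at 112 to 17653 counts per library.

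The members' differences were small beside those that edgeR's fit on group called. The largest, that of Ube2c, was 1.80-fold, and the smallest called for any gene in that fit was 3.07-fold. Other fits called smaller differences: DESeq2 called Ube2c, and edgeR with the replicate number as a term called Ube2c and Rrm2. The 95% interval of the log2 difference lay between −1 and 1, that is within a 2-fold change either way, for 14 of the 38 members: 7 of the 10 S phase, 3 of the 9 G1 control and 4 of the 19 mitotic members. For 15 mitotic members the interval reached −1 or lower, and a member that missed the threshold is therefore not shown to be equal in both intestines.

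**Figure D1:**
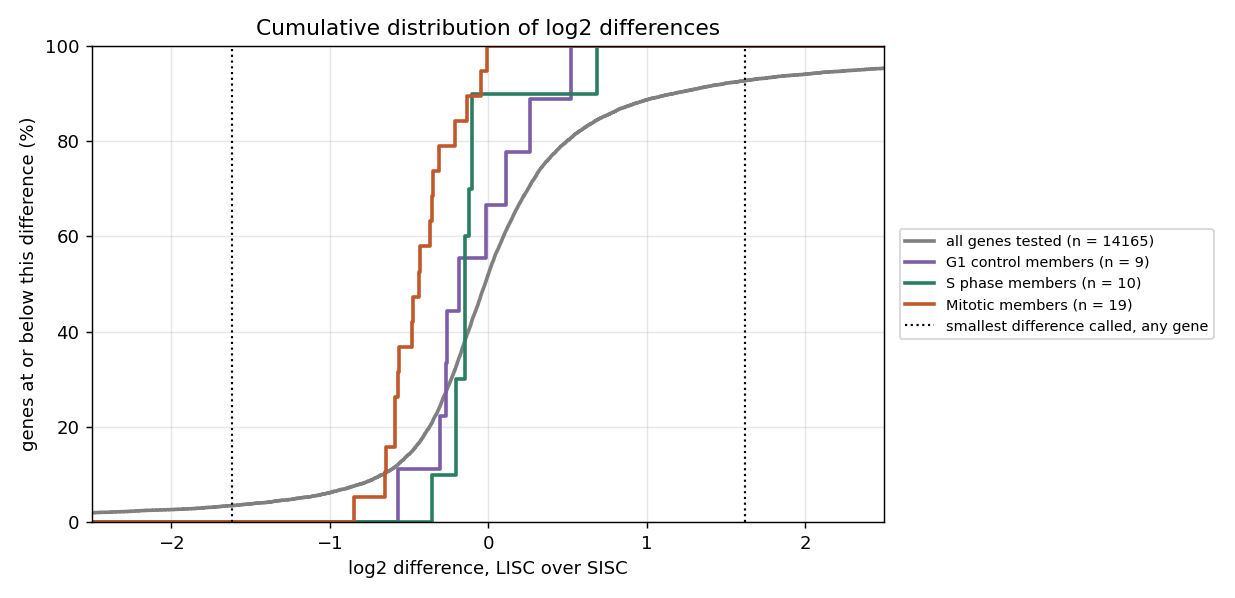
Cumulative share of genes (%) at or below each log2 difference of LISC over SISC, for all 14165 genes tested and for the G1 control, S phase and mitotic members. Dotted lines mark the smallest difference that edgeR's fit on group called for any gene (3.07-fold). The mitotic curve lies left of 0 throughout, with its median at −0.44, and every member lies inside the dotted lines.

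Among the G1 control genes the levels were led by Cdk4, the kinase partner of D-type cyclins (ENSMUSG00000006728, chr10:127063534-127067920, GRCm38, as all coordinates here). Cdk4 was read at 307 and 351 CPM in the SISC libraries and 218 and 225 CPM in the LISC libraries, so that both LISC libraries lay below both SISC libraries. Its log2 difference was −0.57 ± 0.31 SE, and −0.49 and −0.64 within replicates 1 and 2, and it did not pass (edgeR adjusted p = 0.599). In TPM, the deposited values scaled by gene length, Cdk4 stood at 233 and 610.2 TPM in the SISC libraries and 175 and 408 TPM in the LISC libraries, the highest of the 38 members in each of the 4 libraries. TPM are compared between genes within a library, and between libraries only where this is stated. Its relative Cdk6 showed no such separation, at 213 and 142 CPM in the SISC libraries and 185 and 110.4 CPM in the LISC libraries (−0.26 ± 0.41 SE; edgeR adjusted p = 0.961).

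The 3 D-type cyclins, which carry growth signals to these kinases, did not share a direction. Ccnd1 (ENSMUSG00000070348, chr7:144929931-144939925), a known Wnt target gene, was read at 174 and 132 CPM in the SISC libraries and 205 and 163 CPM in the LISC libraries. Its groups overlapped, and its log2 difference was 0.27 ± 0.32 SE with a 95% interval of −0.56 to 1.09 (edgeR adjusted p = 0.934). Ccnd2 (ENSMUSG00000000184, chr6:127125162-127152193) was read at 182 and 238 CPM in the SISC libraries and 152 and 189 CPM in the LISC libraries. Its groups overlapped too, at a log2 difference of −0.30 ± 0.32 SE (edgeR adjusted p = 0.907). Within a library the ratio of Ccnd1 to Ccnd2 in TPM was 1.52 and 0.821 in SISC and 2.13 and 1.24 in LISC; it was higher in LISC within each replicate number, but LISC replicate 2 lay below SISC replicate 1. Ccnd3 had a log2 difference of 0.11 ± 0.26 SE (edgeR adjusted p = 0.991).

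Cyclin E1, which acts with Cdk2 at the start of S phase, was read low: Ccne1 (ENSMUSG00000002068, chr7:38097984-38107534) had 8.44 and 11.1 CPM in the SISC libraries and 15.8 and 12.3 CPM in the LISC libraries. Both LISC libraries lay above both SISC libraries, though LISC replicate 2 by little, and the log2 difference of 0.52 ± 0.30 SE came to 0.90 and 0.15 within replicates 1 and 2 (edgeR adjusted p = 0.638). Cdk2 itself had a log2 difference of −0.18 ± 0.26 SE (edgeR adjusted p = 0.957). Of the inhibitors, Cdkn1b (p27) was near level, at −0.016 ± 0.36 SE with a 95% interval of −0.95 to 0.92. Cdkn1a (p21), a target of p53, was read at 30.6 and 8.12 CPM in the SISC libraries and 10.4 and 21.6 CPM in the LISC libraries, so that it was lower in LISC within replicate 1 (log2 −1.55) and higher within replicate 2 (1.40). Its spread within each group exceeded the difference between them (−0.26 ± 0.71 SE). The G1 median of −0.18 has no settled sign: it came to 0.054, 0.091 and 0.0039 without SISC replicate 1, LISC replicate 1 and LISC replicate 2.

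**Figure D2:**
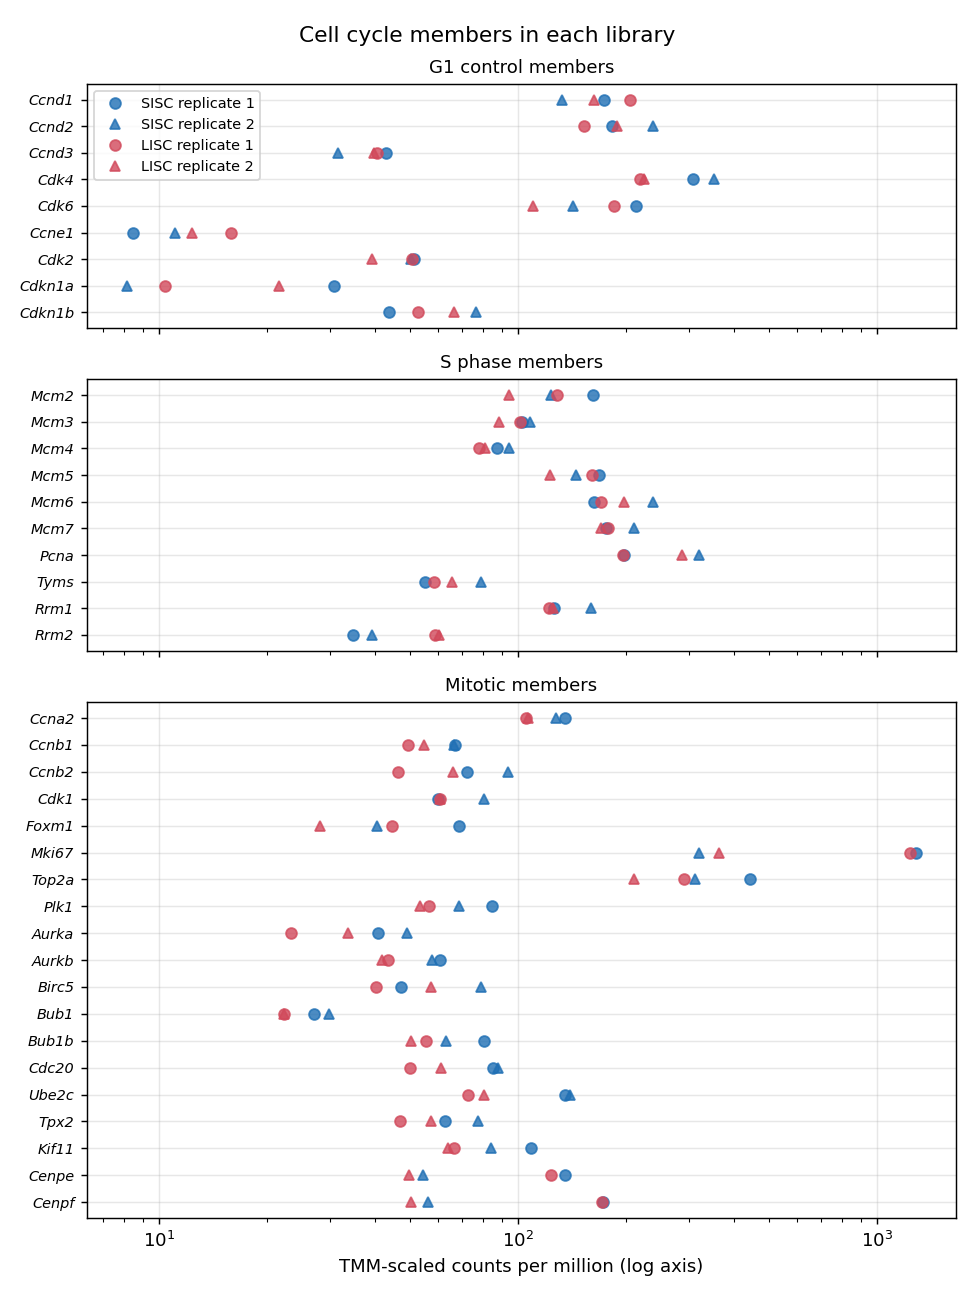
CPM (TMM-scaled counts, log axis) of each of the 38 members in each library, with SISC in blue, LISC in red, replicate 1 as circles and replicate 2 as triangles. Most mitotic members have both red points left of both blue points, and Mki67, Cenpe and Cenpf part by replicate number instead.

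The replication genes lay slightly below 0, with Rrm2 above it and apart from the rest. Their median of −0.15 came to −0.26 without SISC replicate 1 and to −0.041 without SISC replicate 2. Within both replicate numbers 6 of the 10 were lower in LISC (34.7% of all genes), and in deposited TPM 9 of the 10 (33.3%). In 3 of the 10 both LISC libraries lay below both SISC libraries (18.4% of all genes), and in 1 both lay above (21.9%). In deposited TPM 0 of the 10 were so separated in either direction. The 6 subunits of the MCM helicase, which is loaded at origins in G1 and unwinds DNA in S phase, had log2 differences of −0.35 to −0.12, all below 0 and none called, though the signs of Mcm5 and Mcm6 changed when 1 library was left out. Mcm2 (ENSMUSG00000002870, chr6:88883474-88898780), the subunit farthest from 0, was read at 162 and 124 CPM in the SISC libraries and 129 and 94.7 CPM in the LISC libraries, with overlapping groups (−0.35 ± 0.32 SE; edgeR adjusted p = 0.86). Mcm4 (ENSMUSG00000022673, chr16:15623897-15637400) was read at 87.5 and 94.7 CPM in the SISC libraries and 77.7 and 80.7 CPM in the LISC libraries and did not overlap between groups, but its difference of −0.20 ± 0.25 SE was below its error (edgeR adjusted p = 0.942). Mcm7 (ENSMUSG00000029730, chr5:138164583-138172422), the subunit highest per length in each library, was read at 175 and 210.5 CPM in the SISC libraries and 178 and 171 CPM in the LISC libraries and in TPM at 51.4 and 117 TPM in the SISC libraries and 49.1 and 104 TPM in the LISC libraries. Its difference of −0.15 ± 0.29 SE had a 95% interval of −0.90 to 0.61 (edgeR adjusted p = 0.982). Although the 6 proteins form a ring together, their TPM spanned 2.74- to 3.57-fold within a library.

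Pcna (ENSMUSG00000027342, chr2:132249162-132253314), the sliding clamp of the polymerases, was read at 198 and 320.0 CPM in the SISC libraries and 196 and 286 CPM in the LISC libraries. It parted by replicate number and not by intestine (−0.10 ± 0.41 SE; edgeR adjusted p = 1), and its log2 difference was above 0 when SISC replicate 2 was left out, at 0.26, or LISC replicate 1, at 0.14. Tyms, the thymidylate synthase gene, had a log2 difference of −0.11 ± 0.30 SE (edgeR adjusted p = 0.997).

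Ribonucleotide reductase, which makes the deoxynucleotides for replication, is built from a large subunit encoded by Rrm1 and a small one by Rrm2. Rrm2 (ENSMUSG00000020649, chr12:24708241-24714146) was read at 34.6 and 39.2 CPM in the SISC libraries and 58.6 and 60.2 CPM in the LISC libraries. Both LISC libraries were well above both SISC libraries, by log2 0.76 and 0.62 within replicates 1 and 2. The fitted difference was 0.69 ± 0.24 SE, a 1.61-fold higher level in LISC with a 95% interval of 0.069 to 1.30 on the log2 scale; its unadjusted p was 0.0356 and it missed the threshold once adjusted over all genes (edgeR adjusted p = 0.306). Rrm1 (ENSMUSG00000030978, chr7:102441695-102469771) had the other sign, with SISC replicate 1 and LISC replicate 2 nearly equal, at 126 and 159 CPM in the SISC libraries and 122 and 125 CPM in the LISC libraries (−0.21 ± 0.29 SE; edgeR adjusted p = 0.956). The ratio of Rrm2 to Rrm1 within a library, which no scaling between libraries touches, was 0.271 and 0.330 in SISC and 0.567 and 0.685 in LISC in TPM, and 0.276 and 0.246 against 0.479 and 0.482 in CPM. The pair was set side by side after its values were seen, and the ratio is given without a test.

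**Figure D3:**
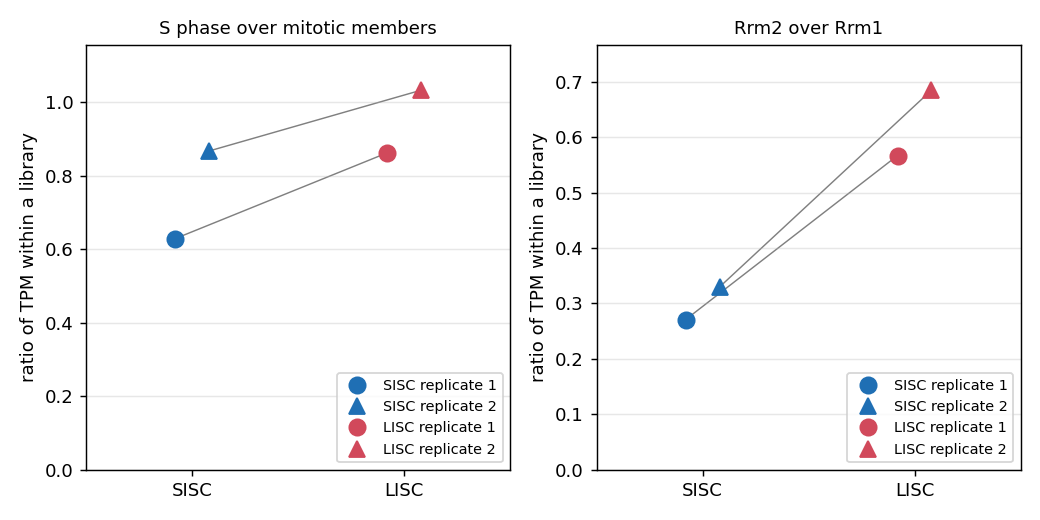
Ratios of TPM within each library, S phase over mitotic members as sums (left) and Rrm2 over Rrm1 (right), with SISC in blue, LISC in red and grey lines joining libraries of the same replicate number. Both ratios are higher in LISC within each replicate number; the left one overlaps between groups, at 0.868 in SISC replicate 2 and 0.863 in LISC replicate 1, and the right one does not.

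No mitotic gene passed edgeR's test on group alone, and the 19 log2 differences ran from −0.85 (Ube2c) to −0.0064 (Mki67). In 13 of the 19 both LISC libraries lay below both SISC libraries, against 18.4% of all genes tested, and in 0 both lay above, against 21.9% of all genes. Within replicate 1 and within replicate 2 alike, 17 of the 19 were lower in LISC (34.7% of all genes), the exceptions being Cdk1 in replicate 1 and Mki67 in replicate 2. The median of −0.44 stood at −0.49 within replicate 1 and −0.42 within replicate 2, and at −0.62 without SISC replicate 2 and −0.38 without SISC replicate 1, the extremes when each library was left out in turn. Mitotic genes are transcribed together in the cycle, and their differences are not independent of each other. The count of 13 was the same with DESeq2's size factors and with rRNA genes removed. In deposited TPM it was 4 of 19 (9.78% of all genes), and 18 of 19 were lower in LISC within both replicate numbers (33.3%). Deposited TPM carry no TMM factors. Their mitotic sums were lower in replicate 1 than in replicate 2, at 728 and 1076 TPM in SISC and 466 and 833 TPM in LISC. The part of this in the count of 4 was not tested. Between the same groups the sums of the Paneth, goblet, tuft and stem cell markers moved as given above, and their part in these values was not tested.

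The mitotic members farthest from 0 were Ube2c, Aurka and Cdc20, of which Ube2c and Cdc20 act with the anaphase-promoting complex. Ube2c (ENSMUSG00000001403, chr2:164769898-164778822), the ubiquitin-conjugating enzyme that starts its chains, was read at 135 and 140.0 CPM in the SISC libraries and 72.7 and 80.4 CPM in the LISC libraries. The groups lay far apart beside the spread within them, with log2 −0.89 and −0.80 within replicates 1 and 2. The fitted difference was −0.85 ± 0.26 SE, 1.80-fold higher in SISC, with a 95% interval of −1.52 to −0.17; the unadjusted p was 0.0239 and the edgeR adjusted p 0.241. In TPM it stood at 141 and 209 TPM in the SISC libraries and 61.7 and 129.8 TPM in the LISC libraries, the highest of the mitotic members in the SISC libraries and in LISC replicate 2, and next below Mki67 in LISC replicate 1. Cdc20 (ENSMUSG00000006398, chr4:118432901-118437352), the activator that the spindle checkpoint holds back, was read at 85.2 and 88.2 CPM in the SISC libraries and 49.9 and 61.0 CPM in the LISC libraries, with no overlap and a log2 difference of −0.64 ± 0.26 SE (edgeR adjusted p = 0.404).

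Aurka (ENSMUSG00000027496, chr2:172356190-172370535), the kinase of centrosomes and spindle poles, was read at 40.7 and 49.1 CPM in the SISC libraries and 23.4 and 33.7 CPM in the LISC libraries. Both LISC values lay below both SISC values, and the log2 difference was −0.65 ± 0.29 SE (edgeR adjusted p = 0.46), or −0.80 and −0.54 within replicates 1 and 2. In 4 other kinases, Aurkb, Plk1, Bub1 and Bub1b, both LISC libraries also lay below both SISC libraries, and none passed: Aurkb of the chromosomal passenger complex had a log2 difference of −0.47 ± 0.24 SE, Plk1 of −0.48 ± 0.26 SE, and the checkpoint kinases Bub1 and Bub1b of −0.35 ± 0.22 SE and −0.44 ± 0.27 SE (edgeR adjusted p = 0.54, 0.605, 0.706 and 0.676). Birc5, the passenger subunit survivin, overlapped between groups (−0.37 ± 0.37 SE), and its sign changed without SISC replicate 2 (0.024).

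The cyclins of mitosis lay on the same side of 0. Ccnb2 had a log2 difference of −0.56 ± 0.32 SE, Ccnb1 of −0.36 ± 0.24 SE and Ccna2, which also acts in S phase, of −0.31 ± 0.26 SE, each with both LISC libraries below both SISC libraries (edgeR adjusted p = 0.626, 0.733 and 0.829). Their partner Cdk1 was read at 59.8 and 80.6 CPM in the SISC libraries and 60.7 and 60.5 CPM in the LISC libraries, level within replicate 1 and lower in LISC within replicate 2 (−0.21 ± 0.28 SE; edgeR adjusted p = 0.951). Foxm1, the forkhead factor that drives mitotic genes, had a log2 difference of −0.59 ± 0.40 SE with overlapping groups, at 68.5 and 40.5 CPM in the SISC libraries and 44.7 and 28.0 CPM in the LISC libraries (edgeR adjusted p = 0.73).

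Top2a (ENSMUSG00000020914, chr11:98992943-99024189), the topoisomerase that untangles replicated chromosomes, was read at 442 and 311 CPM in the SISC libraries and 290.0 and 210.1 CPM in the LISC libraries. Its fitted log2 difference was −0.59 ± 0.38 SE (edgeR adjusted p = 0.707). The groups did not overlap, yet SISC replicate 2 and LISC replicate 1 lay closer to each other than the replicates of either group did. The spindle motor gene Kif11 had a log2 difference of −0.57 ± 0.28 SE and the spindle assembly gene Tpx2 of −0.43 ± 0.27 SE, without overlap (edgeR adjusted p = 0.519 and 0.699).

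**Figure D4:**
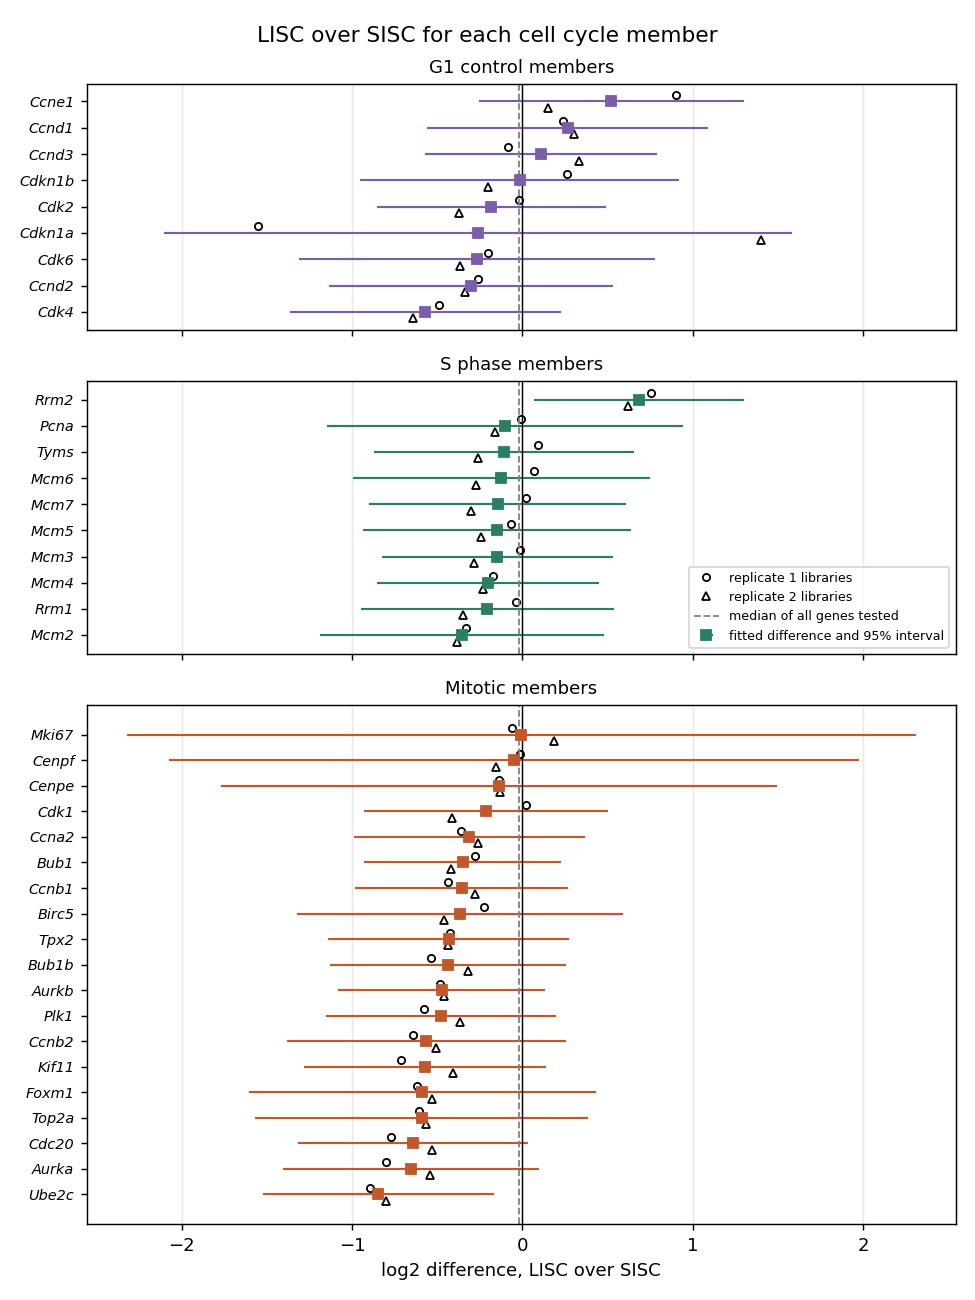
Log2 difference of LISC over SISC for each member (squares, with 95% intervals from edgeR's fit), beside the differences within replicate 1 (open circles) and replicate 2 (open triangles); the dashed line is the median of all genes tested. The intervals of Ube2c, below 0, and Rrm2, above 0, are the only ones of the 38 that exclude 0, before any adjustment for the number of genes.

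Mki67, the gene of the proliferation antigen Ki-67, showed the largest spread. It was read at 1284 and 319 CPM in the SISC libraries and 1233 and 363 CPM in the LISC libraries, so that the replicate 1 libraries were alike and far above the replicate 2 libraries in both intestines. The log2 difference between intestines was −0.0064 ± 0.90 SE, with a 95% interval of −2.32 to 2.31 that leaves a 4-fold difference in either direction possible. Cenpe and Cenpf, a kinetochore motor and a kinetochore protein, were split the same way in CPM. Cenpe was read at 135 and 54.5 CPM in the SISC libraries and 123 and 49.7 CPM in the LISC libraries. Cenpf was read at 173 and 56.2 CPM in the SISC libraries and 171 and 50.4 CPM in the LISC libraries. In deposited TPM Cenpf was near level between replicate numbers, at 11.6 and 11.7 TPM in SISC and 10.5 and 10.4 TPM in LISC. Cenpe was lower in replicate 1, at 12.2 and 14.1 TPM in SISC and 10.5 and 13.3 TPM in LISC. Mki67 kept a split in TPM, at 96.5 and 38.1 TPM in SISC and 81.2 and 46.9 TPM in LISC. Over replicate numbers, replicate 1 stood above replicate 2 in CPM by log2 1.89, 1.69 and 1.31 for Mki67, Cenpf and Cenpe. Their longest coding transcripts have 10061, 11130 and 7910 bases. In 17 of the 38 members the difference between replicate numbers was larger than that between intestines. The same share over all genes was not taken, so the count is not shown to be particular to these members. Across the 38 members the difference between replicate numbers had a rank correlation with transcript length of 0.39 (Spearman). Across 12382 protein-coding genes tested it was 0.45. Genes are not independent replicates and all points come from the same 4 libraries. Values of Mki67 from these libraries carry this difference between replicate numbers and do not order the intestines. In CPM the difference between replicate numbers was over 3-fold in either intestine.

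**Figure D5:**
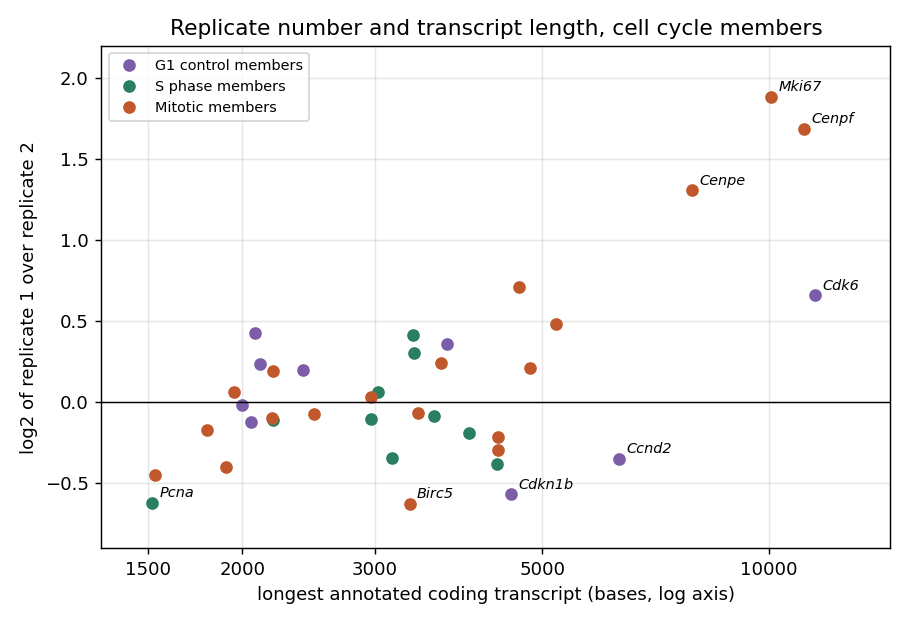
Log2 ratio of CPM in replicate 1 over replicate 2, averaged over both intestines, for the 38 members. It is set against the length of the longest annotated coding transcript (bases, log axis). Mki67, Cenpf and Cenpe lie at 1.89, 1.69 and 1.31; the shortest, Pcna, lies at −0.62.

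S phase and mitotic members were set against each other within a library, as their summed TPM, which no scaling between libraries touches. The S phase sum divided by the mitotic sum was 0.629 and 0.868 in replicates 1 and 2 of SISC, against 0.863 and 1.03 in those of LISC. It was higher in LISC within each replicate number, but the groups overlapped: SISC replicate 2 and LISC replicate 1 were nearly equal, and the replicates of a group differed by about as much as the intestines.

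Promoters are shown for the 4 mitotic members with the largest absolute log2 difference and for the reductase pair. None of them passed edgeR's test on group alone, while Ube2c and Rrm2 passed with the replicate number as a term. Of the 38 members, 31 had an entry in RefSeq's promoter table (GRCm38.p6), with 34 windows of 250 bases before a start site. Both strands were searched for the CHR letters TTTGAA, the CCAAT box (CCAAT) and the E2F letters TTTCGCGC or TTTGGCGC. A CHR stood in 7 of 15 mitotic windows (46.7%), 1 of 10 S phase windows and 0 of 9 G1 control windows, against 15.99% of all 32851 windows. A CCAAT box stood in 14 of 15 mitotic, 9 of 10 S phase and 3 of 9 G1 control windows, against 33.8% of all windows. All 7 mitotic windows with a CHR also held a CCAAT box, a pair found in 5.55% of all windows, and the E2F letters stood in 1 mitotic and 2 S phase windows, against 0.654% of all. A match is a run of letters and not a shown binding site. The starts are RefSeq's. The 6 windows read 5′ to 3′ on the gene's strand, end at the base before the start, and have the matches in capitals; on the other strand the CHR reads TTCAAA and the CCAAT box ATTGG.
Ube2c (chr2:164769679-164769928, plus strand): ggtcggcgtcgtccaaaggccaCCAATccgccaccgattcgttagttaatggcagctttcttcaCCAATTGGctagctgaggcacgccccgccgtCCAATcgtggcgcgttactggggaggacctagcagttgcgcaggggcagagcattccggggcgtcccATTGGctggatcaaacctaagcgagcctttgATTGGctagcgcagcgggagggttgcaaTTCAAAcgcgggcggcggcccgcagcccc
Cdc20 (chr4:118437344-118437593, minus strand): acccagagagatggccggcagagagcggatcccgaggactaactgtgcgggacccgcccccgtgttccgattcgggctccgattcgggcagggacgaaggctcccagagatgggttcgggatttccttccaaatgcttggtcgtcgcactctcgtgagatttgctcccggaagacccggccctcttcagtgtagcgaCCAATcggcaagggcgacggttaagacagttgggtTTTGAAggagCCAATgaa
Top2a (chr11:99024190-99024439, minus strand): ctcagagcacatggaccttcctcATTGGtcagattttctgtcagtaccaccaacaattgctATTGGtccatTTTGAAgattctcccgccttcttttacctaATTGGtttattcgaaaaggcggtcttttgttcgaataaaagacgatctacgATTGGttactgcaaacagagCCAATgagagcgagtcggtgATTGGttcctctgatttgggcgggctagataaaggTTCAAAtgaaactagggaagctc
Aurka (chr2:172370571-172370820, minus strand): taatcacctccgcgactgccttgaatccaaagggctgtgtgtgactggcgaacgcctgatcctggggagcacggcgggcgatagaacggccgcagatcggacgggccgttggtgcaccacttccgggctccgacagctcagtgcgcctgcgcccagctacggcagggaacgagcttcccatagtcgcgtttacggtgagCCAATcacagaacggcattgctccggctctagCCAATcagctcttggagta
Rrm2 (chr12:24708004-24708253, plus strand): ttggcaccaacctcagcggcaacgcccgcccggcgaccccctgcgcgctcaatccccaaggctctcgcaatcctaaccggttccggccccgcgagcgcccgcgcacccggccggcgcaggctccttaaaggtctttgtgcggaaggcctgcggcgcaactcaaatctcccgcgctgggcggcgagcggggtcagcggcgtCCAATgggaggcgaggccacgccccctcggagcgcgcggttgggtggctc
Rrm1 (chr7:102441445-102441694, plus strand): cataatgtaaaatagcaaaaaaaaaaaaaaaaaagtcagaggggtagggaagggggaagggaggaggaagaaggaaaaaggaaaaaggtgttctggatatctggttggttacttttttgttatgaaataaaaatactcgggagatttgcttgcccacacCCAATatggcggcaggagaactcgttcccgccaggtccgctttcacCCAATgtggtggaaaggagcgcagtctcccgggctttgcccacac

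The Ube2c window holds 1 CHR, 29 bases before the start, and 6 CCAAT boxes, of which a pair on opposite strands shares its middle letters. Cdc20 has 1 CHR, 18 bases before its start, between 2 CCAAT boxes. Top2a has 2 CHR matches, 179 and 23 bases before the start, and 6 CCAAT boxes. Aurka holds 2 CCAAT boxes and no CHR letters in this window. In the reductase pair, Rrm2 holds 1 CCAAT box and Rrm1 2, with no CHR and no E2F letters in the windows.

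Lists of further genes of the same steps, none of them among the 38, gave 0 called genes in either direction by edgeR, DESeq2 or limma. At an unadjusted p below 0.05 in edgeR there were 3, Kif2c, Mycn and Ccng2, all higher in SISC. Over all genes tested, 4.67% had such a p and were higher in SISC, and 8.73% were higher in LISC. Of 49 other mitotic genes, 47 had a log2 difference below 0 (52% of all genes), and in 29 both LISC libraries lay below both SISC libraries, against 18.4% of all genes tested; the median was −0.38, and −0.38 and −0.36 within replicates 1 and 2. In deposited TPM only 5 of these 49 genes (10.2%) were separated in this way, beside 9.78% of all genes. The excess over all genes was thus not seen in TPM. Of the 49, 43 were still lower in LISC for both replicate numbers in TPM (33.3% of all genes). The lowest p-values were those of Kif2c, a kinesin that takes microtubules apart, Kif23, a kinesin of the central spindle, and Cenpa, the centromeric histone. Kif2c was read at 38.9 and 41.7 CPM in the SISC libraries and 22.6 and 25.7 CPM in the LISC libraries (−0.74 ± 0.23 SE; edgeR adjusted p = 0.235). Kif23 was read at 72.3 and 76.0 CPM in the SISC libraries and 42.6 and 52.4 CPM in the LISC libraries and Cenpa at 62.3 and 80.3 CPM in the SISC libraries and 42.5 and 48.5 CPM in the LISC libraries (edgeR adjusted p = 0.398 and 0.426). In each the groups did not overlap.

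Of 45 other S phase genes, 38 had a log2 difference below 0 (52% of all genes), with a median of −0.23. In 15 both LISC libraries lay below both SISC libraries, against 18.4% of all genes, and in 1 both lay above, against 21.9%. Mcm10, which helps activate the helicase, was read at 56.0 and 49.5 CPM in the SISC libraries and 36.0 and 33.1 CPM in the LISC libraries (−0.61 ± 0.24 SE; edgeR adjusted p = 0.375). Orc1, a subunit of the origin recognition complex, had 4.15 and 7.03 CPM in the SISC libraries and 8.99 and 9.56 CPM in the LISC libraries, with LISC above SISC (0.72 ± 0.39 SE; edgeR adjusted p = 0.602), and Dbf4, the activator of the Cdc7 kinase, had a log2 difference of −0.39 ± 0.23 SE (edgeR adjusted p = 0.639).

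Of 29 other G1 control genes, 28 passed the filter, with a median log2 difference of −0.15; 16 lay below 0 and 12 above. In 9 of them both LISC libraries lay below both SISC libraries and in 6 both lay above, shares to be read against the same 18.4% and 21.9%. Cdkn2a, the gene of p16 and p19Arf, had 0 counts in all 4 libraries, where the upper limit for such a gene, 3 counts, comes to 0.110 to 0.234 CPM of the whole library, and was not tested. Mycn, a MYC family factor, was read at 3.49 and 3.09 CPM in the SISC libraries and 0.927 and 0.859 CPM in the LISC libraries, without overlap; its log2 difference of −1.88 ± 0.55 SE had an unadjusted p of 0.0193 and missed the threshold (edgeR adjusted p = 0.215). Ccng2, a cyclin linked to cell cycle arrest, was read at 27.5 and 23.5 CPM in the SISC libraries and 12.9 and 16.6 CPM in the LISC libraries (−0.79 ± 0.27 SE, edgeR adjusted p = 0.297). Wee1, the kinase that holds Cdk1 inactive, was read at 57.6 and 53.7 CPM in the SISC libraries and 41.6 and 33.9 CPM in the LISC libraries (edgeR adjusted p = 0.468). Wee1 was counted in this list although its target Cdk1 is among the mitotic members here.

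Exons of 12 members overlap a gene on the other strand, and it is not known here which strand option was used in counting, so that reads of such pairs may not have been kept apart. In 6 of them, Ccnd3, Cdk4, Mcm7, Ccna2, Plk1 and Cdc20, the neighbour's mean CPM exceeded 10% of the member's own. Expected counts of 5 members, Mcm7, Pcna, Ccnb1, Foxm1 and Mki67, lay more than 0.001 from a whole number in some library, which means that reads were divided with other genes. Of the 6 members with such a neighbour, Ccnd3, Cdk4, Ccna2, Plk1 and Cdc20 had whole counts in every library. The strand option itself was not tested.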

How the data were processed

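Poly(A)-selected RNA was made into directional libraries, per the labels' protocols. The authors deposited RSEM expected counts and TPM per gene; the submitters' processing notes name STAR 2.7.2b, RSEM 1.2.31 and the build GRCm38 (mm10). Neither annotation release nor strand setting is given in the sources used here. Symbols (55227 of 55487 gene IDs), coordinates and transcript lengths came from GENCODE vM21. Deposited expected counts were rounded and tested with edgeR 4.0.16 (R 4.3.3): filterByExpr at a minimum count of 10, TMM factors, quasi-likelihood fit on group, Benjamini-Hochberg adjustment over 14165 genes, threshold 0.05. Standard errors were derived from that fit, as the absolute log2 difference divided by the square root of its F statistic. The 95% intervals were built from them with quantiles of the t distribution and cover only the spread between libraries. Within-replicate differences are of log CPM (prior count 2). DESeq2 1.42.0 and limma 3.58.1 on log2 of the deposited TPM plus 1 or 0.1 were alternatives, with other filters and scalings, rRNA genes removed, a replicate block and each library left out. The fit was tested on simulated data. The simulated counts spread less than the real ones and held no difference between replicate numbers. That run therefore does not show how well the fit performs on these libraries.

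The members and lists were chosen with earlier results of these data known. Values per library are given, in each class, for the 4 members with the largest absolute log2 difference and the 2 highest in mean TPM, and for the 3 genes with the lowest p in each list of other genes. Cdk6, Cdkn1a, Cdk1, Foxm1, Mki67, Cenpe, Cenpf and the ratios were added after their values were seen. Promoters came from RefSeq; 7 members (Aurkb, Foxm1, Ccnd2, Tpx2, Mcm4, Ccna2 and Ccnd1) were not matched.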

Additional observations from a re-analysis of the deposited data

How the results depend on the processing

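Over 12 alternatives, 428 of 456 member values kept their sign and their side of the threshold. Genes called higher in LISC (206) and in SISC (105) became 785 and 398 (DESeq2), 942 and 465 (all genes with any count), 353 and 172 with limma on log2(TPM + 1), 372 and 179 on log2(TPM + 0.1), and 143 to 348 and 60 to 151 when each library was left out; the cause was not tested. Members called higher in SISC became 1 with DESeq2, Ube2c, and 0 members were called in either direction without each library. The replicate number as a block called 1015 and 524 genes and 1 member in each direction, Rrm2 (edgeR adjusted p = 0.0422) and Ube2c (0.0226). Deviations of same-numbered libraries from their group means correlated at 0.648, but with 2 pairs and no label of a shared animal or day the libraries share only a number. The G1 control median was −0.084 and −0.091 with limma (pseudocounts 1 and 0.1), −0.026 with the replicate block and −0.12 to 0.091 without each library; the mitotic median was −0.62 to −0.38 without each library. Mki67 lay at 0.013 with a minimum count of 50, 0.022 and 0.024 with limma and 0.064 with the replicate block, and Cdkn1b at 0.024 with the block. Without each library, signs changed in Birc5 (−0.69 to 0.024), Ccnd3 (−0.12 to 0.35), Cdk2 (−0.38 to 0.0039), Cdk6 (−0.68 to 0.070), Cdkn1a (−0.96 to 0.99), Cdkn1b (−0.36 to 0.41), Cenpe (−0.93 to 0.66), Cenpf (−1.18 to 0.98), Mcm5 (−0.35 to 0.045), Mcm6 (−0.37 to 0.15), Mki67 (−1.14 to 1.32), Pcna (−0.41 to 0.26) and Tyms (−0.34 to 0.15).

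With 2 libraries a group and a common biological coefficient of variation of 43.4%, the smallest difference that edgeR's fit on group called was 3.07-fold, above every member's. Ube2c and Rrm2 were called at smaller differences by other fits, as given above. Gate and intestine cannot be told apart. Leaving out a library leaves 1 in its group, which is then assumed to vary like the other group's.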
